A study of Mus musculus with 24 samples.

Results

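The 35 genes described here make, sense, take up, store and export cholesterol, and were chosen by name from the 32728 genes listed in the deposited count tables of cultured mouse neurons and astrocytes. They comprise 18 synthesis enzymes, 4 sterol sensors, 2 lipoprotein receptors, 1 ligase that degrades such receptors, 4 transport and storage genes, 4 export and conversion genes and 2 liver X receptors (LXRs). Counts came from 24 libraries of total RNA in 8 groups of 3. The groups were TM-treated Perk KO neurons, TM-treated WT neurons, control Perk KO neurons, control WT neurons and the same 4 groups of astrocytes. Cells of all groups came from PerkloxP/loxP mice. In culture, active Cre recombinase delivered by lentivirus made the Perk KO cells, and inactive ΔCre delivered the same way made the WT cells. Tunicamycin (TM), which blocks N-linked glycosylation and so causes unfolded proteins to accumulate in the endoplasmic reticulum (ER), was given at 5 µg/mL for 24 h by the sample labels, at day 14 in vitro, and controls received DMSO. Because deletion was made by transduction in culture, each library averages over the cells that recombined and any that did not. The cultures were lysed whole.

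Cholesterol is built from acetyl-CoA through mevalonate, squalene and lanosterol. The genes of this route are switched on by SREBP2, the product of Srebf2, a transcription factor that is held in the ER membrane with its escort Scap. When sterols are plentiful, the Insig proteins keep Scap in the ER, and when sterols run low SREBP2 moves to the Golgi and is cleaved. LXRs, encoded by Nr1h2 and Nr1h3, do the opposite job: oxysterols activate them, and they drive export genes such as Abca1, Abcg1 and Apoe and the receptor ligase Mylip. In the brain, astrocytes are known as the main source of apolipoprotein E particles, and neurons dispose of cholesterol through the hydroxylase Cyp46a1. Perk, the product of Eif2ak3, is an ER kinase that slows translation by phosphorylating eIF2α.

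The promoters of 5 members are shown because these genes went different ways under TM and stand for the 2 sides of the pathway: Hmgcs1 and Nsdhl, which fell in WT neurons, Mvd and Ebp, synthesis enzymes that rose in at least 1 culture, and Apoe, the apolipoprotein of export. Sequences are from RefSeq (GRCm38.p6), run 5′ to 3′ from 250 bases before to 50 after the annotated start, and belong to chr13:119690101-119690400 (plus strand), chrX:72918271-72918570 (plus), chr8:122443373-122443672 (minus), chrX:8193463-8193762 (minus) and chr7:19699139-19699438 (minus). Capitals mark CCAAT on either strand, the box bound by NF-Y, a partner of SREBP2, and TCACNCCAC on either strand, a core of the sterol regulatory element.
Hmgcs1: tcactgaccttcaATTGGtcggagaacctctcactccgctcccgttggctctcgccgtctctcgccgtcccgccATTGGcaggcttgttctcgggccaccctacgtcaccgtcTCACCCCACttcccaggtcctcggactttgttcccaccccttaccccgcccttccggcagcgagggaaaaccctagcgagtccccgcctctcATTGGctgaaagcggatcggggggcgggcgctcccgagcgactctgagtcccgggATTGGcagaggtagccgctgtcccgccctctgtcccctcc
Nsdhl: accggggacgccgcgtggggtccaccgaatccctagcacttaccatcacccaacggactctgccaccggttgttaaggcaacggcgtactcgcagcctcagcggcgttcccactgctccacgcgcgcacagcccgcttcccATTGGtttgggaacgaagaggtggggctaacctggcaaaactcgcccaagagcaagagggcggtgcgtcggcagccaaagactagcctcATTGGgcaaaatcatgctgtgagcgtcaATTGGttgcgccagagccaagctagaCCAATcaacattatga
Mvd: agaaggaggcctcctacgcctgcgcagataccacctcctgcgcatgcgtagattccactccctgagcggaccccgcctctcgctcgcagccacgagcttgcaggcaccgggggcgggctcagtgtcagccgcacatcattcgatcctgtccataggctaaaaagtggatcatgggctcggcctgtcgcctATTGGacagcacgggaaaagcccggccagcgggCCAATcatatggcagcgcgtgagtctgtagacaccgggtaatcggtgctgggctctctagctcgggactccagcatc
Ebp: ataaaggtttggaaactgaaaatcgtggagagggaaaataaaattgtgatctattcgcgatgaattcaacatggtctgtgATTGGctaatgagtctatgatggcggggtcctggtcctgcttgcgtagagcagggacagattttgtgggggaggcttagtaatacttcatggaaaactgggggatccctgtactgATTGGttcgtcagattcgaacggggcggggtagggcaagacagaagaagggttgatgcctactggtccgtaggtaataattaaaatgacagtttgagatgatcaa
Apoe: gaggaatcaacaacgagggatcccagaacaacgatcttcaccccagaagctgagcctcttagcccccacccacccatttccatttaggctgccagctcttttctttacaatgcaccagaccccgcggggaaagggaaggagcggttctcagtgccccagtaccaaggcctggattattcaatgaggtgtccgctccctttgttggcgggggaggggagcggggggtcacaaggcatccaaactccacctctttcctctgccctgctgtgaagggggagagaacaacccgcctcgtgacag

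RefSeq windows were found for 29 of the 35 members, including 15 of the 18 synthesis genes. CCAAT was present in 13 of these 15 synthesis windows (the exceptions were Acat2 and Dhcr7), in 1 of 3 export windows and in 37.4% of all 32851 windows. GGGCGG, the Sp1 box, was present in 14 of the 15 synthesis windows and in 35.7% of all windows. TCACNCCAC was found in Hmgcs1 alone among the members and in 1.24% of all windows, and the direct repeat of GGTCA with 5 bases between the copies, a site type bound by LXRs, in 0 of the 29 member windows and in 0.0761% of all windows. Mvd and Ebp each held 2 CCAAT boxes, and Hmgcs1 and Nsdhl 4 each. These matches describe letters in these windows and say nothing of binding.

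Libraries held 16.0 to 25.9 M counts, and the 35 members together took 0.273% to 0.388% of them in TM-treated WT astrocytes at the low end and 0.846% to 0.978% in control Perk KO astrocytes at the high end. Apoe alone can hold much of such a share. It had 87621 of the 156296 member counts in control WT astrocyte library 1 and 42572 of 102135 in library 3. CPM are counts scaled to a common library size, with TMM normalisation done once among the 12 neuron libraries and once among the 12 astrocyte libraries. Changes are log2 fold changes ± standard error from edgeR's quasi-likelihood test on raw counts of 3 against 3 libraries. A change was called, and is written as a rise or a fall, at a Benjamini-Hochberg adjusted p under 0.05 over all genes of a fit. The targeted gene Eif2ak3 bore out the labels, with 5.02 to 5.62 CPM in control Perk KO neurons against 31.6 to 36.8 CPM in control WT neurons, and 5.96 to 7.70 CPM in control Perk KO astrocytes against 25.2 to 28.1 CPM in control WT astrocytes. The ER chaperone gene Hspa5, a check of TM, reached 10211 to 11332 CPM in TM-treated WT neurons against 519 to 539.9 CPM in control WT neurons. It reached less in TM-treated Perk KO neurons, 2157 to 2768 CPM against 482 to 528 CPM in their controls. In WT astrocytes it had 17681 to 19482 CPM with TM and 1147 to 1872 CPM in controls. In Perk KO astrocytes it had 4998 to 7055 CPM with TM and 863 to 1032 CPM in controls. Neuron cultures held astrocyte transcripts: the 8 astrocyte markers summed to 2422 to 2522 CPM in control WT neuron cultures and 2207 to 3440.0 CPM in control WT astrocyte cultures, while the 8 neuron markers summed to 5554 to 5913 CPM in the same neuron cultures and 276 to 313 CPM in the same astrocyte cultures. In such bulk samples, fewer cells of a type and less RNA per cell cannot be told apart.

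In unstressed WT cultures, neurons carried far more transcript of the synthesis route than astrocytes did. All 18 synthesis genes were higher in neurons, with a median log2 difference of 2.01 against -0.03 over all genes tested. Of the 35 members, 25 were higher and 7 lower, where 71.1% of all 15817 genes were called, 35.8% higher and 35.2% lower. Dhcr7, which reduces the last precursor to cholesterol, had 139, 129.8 and 124 CPM in control WT neurons and 11.9, 13.8 and 10.4 CPM in control WT astrocytes, here normalised over these 6 libraries. Each neuron library was many times above each astrocyte library, and the log2 difference was 3.44 ± 0.14 (adjusted p = 7.32e-08). Mvd, the decarboxylase that makes isopentenyl diphosphate, had 108, 108 and 98.9 CPM in neurons and 9.89, 9.86 and 10.7 CPM in astrocytes, without overlap (log2 difference 3.36 ± 0.12, adjusted p = 3.26e-08). The smallest differences among the synthesis genes were those of Msmo1, a sterol methyl oxidase (1.12 ± 0.12), and Sc5d, a sterol desaturase (1.13 ± 0.11). Fdps, the farnesyl diphosphate synthase, had the largest fitted difference, but its 0.273, 0.209 and 0.456 CPM in astrocytes are a few reads, and its near-identical copies in the genome make its counts uncertain.

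Export genes did not share a direction between the unstressed cultures. Abca1, the transporter that loads cholesterol onto apolipoproteins, had 153, 177 and 251 CPM in control WT neurons and 803, 933 and 699 CPM in control WT astrocytes, all neuron libraries lying below all astrocyte ones (log2 difference -2.07 ± 0.20, adjusted p = 1.59e-05). Its relative Abcg1 was higher in neurons (3.34 ± 0.19, adjusted p = 6.09e-07), as was Cyp46a1 (2.57 ± 0.14, adjusted p = 4.20e-07). Apoe had 3102, 2567 and 2008 CPM in neuron cultures and 3993, 2338 and 2157 CPM in astrocyte cultures, which overlapped (adjusted p = 0.622). The astrocyte library with the high Apoe value also held the most microglia marker counts of its group, and the part of this in its Apoe level was not tested. Nr1h3, which encodes LXRα, was lower in neurons (-2.84 ± 0.28), and Nr1h2, which encodes LXRβ, was lower too (-0.70 ± 0.15), with adjusted p of 2.15e-05 and 0.00248. The 2 receptors Vldlr and Lrp1 overlapped between the cell types and were not called.

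Per kilobase of transcript, which allows levels of different genes to be set in order, Apoe stood at the top in both control WT cultures, with 1197 ± 256 CPM per kb in neurons and 1323 ± 473 in astrocytes (SD, n = 3 each). Hmgcs1, the synthase that makes HMG-CoA, came next in neurons at 224 ± 18.1 CPM per kb, ahead of Insig1 at 85.5 ± 4.20, Cyp51, the lanosterol demethylase, at 81.2 ± 6.02 and Fdft1, the squalene synthase, at 78.9 ± 8.23. The last 3 lay within each other's spread. In astrocytes the order was Abca1 at 78.3 ± 11.3, the lysosomal carrier Npc2 at 43.2 ± 3.05 and Hmgcs1 at 39.3 ± 3.14, of which the last 2 differed by little more than their spread. The genes at the bottom were Nr1h3 in neurons (0.610 ± 0.206) and, Fdps aside, Mylip in astrocytes (0.690 ± 0.134).

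**Figure D1:**
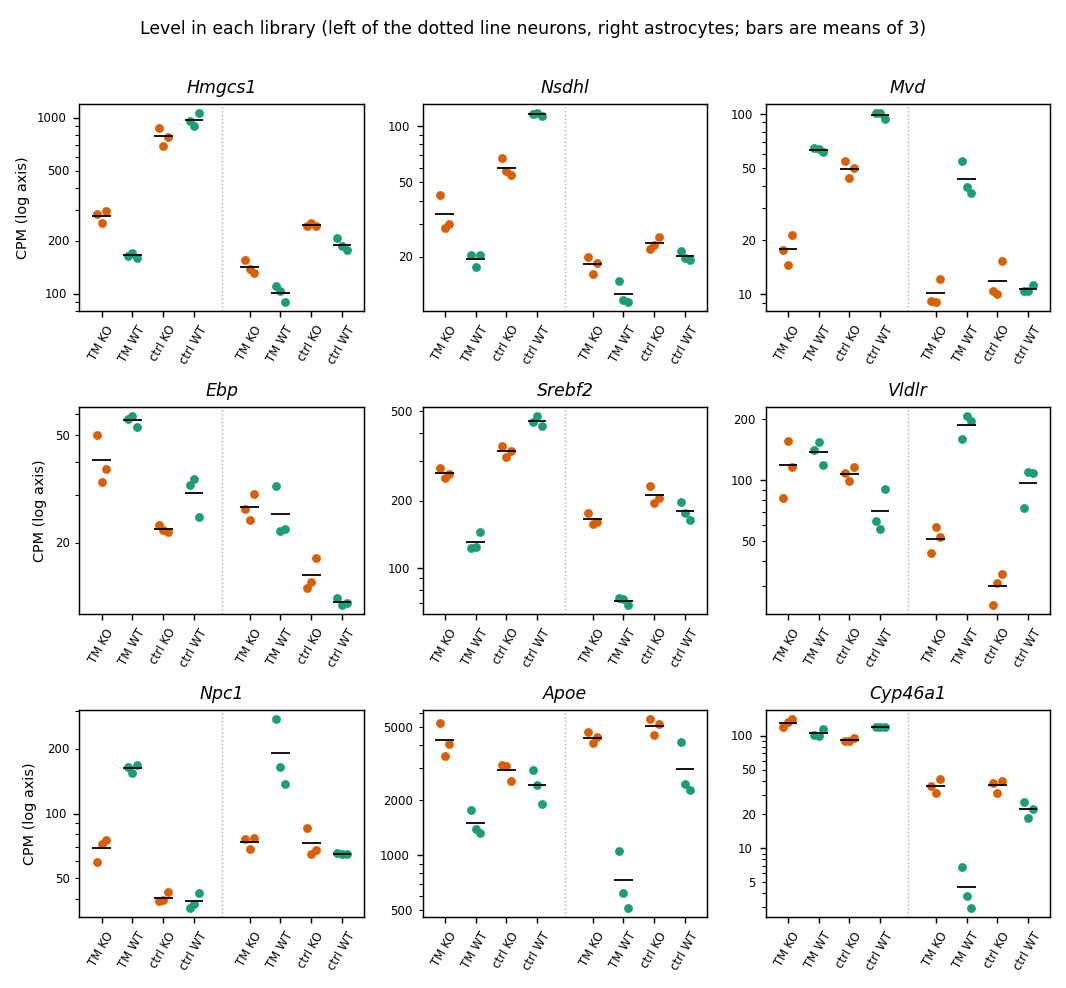
CPM (log axis) of 9 members in each of the 24 libraries; points are libraries, bars are means of 3, orange is Perk KO and green is WT, and CPM are normalised separately for neurons and astrocytes. In TM-treated WT neurons Hmgcs1 and Nsdhl lie far below control WT neurons, whereas Mvd in TM-treated WT astrocytes lies above every other astrocyte group.

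In WT neurons, TM lowered nearly the whole synthesis route. Of the 35 members, all of which passed the filter on low counts, 22 fell and 6 rose, where 51.8% of all 15546 genes were called, 27.0% higher and 24.8% lower. Among the 18 synthesis genes 17 fell and 1 rose, with a median log2 fold change of -1.78 against 0.04 over all genes tested. Of the 8 neuron markers 6 fell as well and none rose, with sums of 3103 to 3426 CPM in TM-treated WT neurons and 5554 to 5913 CPM in control WT neurons. Oligodendrocyte lineage markers summed to 98.4 to 142 CPM with TM and 399 to 457 CPM in controls, with 6 of 7 lower and 1 higher. Fibroblast and mural markers summed to 136 to 168 and 397 to 411 CPM, with 3 of 7 lower, and microglia markers to 4.37 to 8.14 and 15.6 to 31.6 CPM, with 4 of 5 lower. The part of these marker changes in the member values was not tested.

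All 7 mevalonate genes fell in WT neurons. Hmgcs1 had 163, 171 and 160.5 CPM in TM-treated WT neurons against 960.1, 896 and 1061 CPM in control WT neurons. The treated libraries lay close together and well below every control, a 6.03-fold fall (-2.59 ± 0.09, adjusted p = 3.20e-07). Idi1, the isomerase that makes the allylic isoprene unit, had 7.86, 9.44 and 6.56 CPM with TM and 44.0, 29.6 and 56.1 CPM in controls, again without overlap (-2.47 ± 0.24, adjusted p = 5.89e-05). Acat2, the thiolase that joins acetyl-CoA units, fell by 2.20 on the log2 scale, and Mvk, mevalonate kinase, fell by 1.96. Mvd fell least in this branch. It had 64.7, 63.7 and 61.7 CPM in TM-treated WT neurons and 101, 101 and 93.9 CPM in control WT neurons, without overlap (-0.68 ± 0.08, adjusted p = 1.58e-04).

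Of the 11 squalene and sterol genes, 10 fell in WT neurons. Nsdhl, a decarboxylating sterol dehydrogenase, had 20.4, 17.7 and 20.5 CPM in TM-treated WT neurons against 117, 117 and 113 CPM in control WT neurons. Both groups were tight and lay far apart (-2.60 ± 0.10, adjusted p = 4.36e-07). The ketoreductase Hsd17b7, which acts in the same demethylation complex, had 13.3, 17.1 and 19.9 CPM with TM and 105, 111 and 96.5 CPM in controls, also without overlap (-2.66 ± 0.15, adjusted p = 3.34e-06). Falls of 2.16 for Fdft1, 1.85 for Dhcr7 and 1.71 for Sqle, the squalene epoxidase, followed on the log2 scale. The smallest fall was that of Lss, lanosterol synthase (-0.31 ± 0.10, adjusted p = 0.0290), which lost its call without TM-treated WT library 1 or 2 (adjusted p up to 0.112). Ebp, the sterol isomerase, went the other way. It had 57.7, 58.9 and 53.7 CPM in TM-treated WT neurons and 32.7, 34.4 and 24.95 CPM in control WT neurons, and every treated library was above every control (0.85 ± 0.13, adjusted p = 7.63e-04).

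Among the sterol sensors of WT neurons, Srebf2 had 123, 124 and 145 CPM with TM against 446, 476 and 429.8 CPM in controls. Every control library was far above every treated one (3.52-fold fall, -1.82 ± 0.10, adjusted p = 2.43e-06). Insig1, an SREBP2 target that retains Scap, fell as well (-0.81 ± 0.07, adjusted p = 4.22e-05). Scap itself overlapped between the groups (0.11 ± 0.09, adjusted p = 0.320). Insig2 was called higher at an adjusted p of 0.0466 (0.25 ± 0.09), a call that was lost in each of the 6 fits that left out a library (adjusted p up to 0.168).

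Transport, storage and uptake genes of WT neurons were divided. Stard4, a soluble sterol carrier, had 13.1, 14.7 and 12.7 CPM in TM-treated WT neurons and 106, 93.3 and 126 CPM in control WT neurons, with no overlap and the largest fall of any member (-3.04 ± 0.13, adjusted p = 8.93e-07). Npc1, which carries cholesterol out of lysosomes, had 164, 154 and 169 CPM with TM and 36.4, 38.0 and 42.8 CPM in controls. The treated libraries were all far above the controls, a 4.06-fold rise (2.02 ± 0.09, adjusted p = 1.21e-06). Its partner Npc2 overlapped between the groups (-0.03 ± 0.12, adjusted p = 0.869). Soat1, which esterifies cholesterol for storage, rose (0.57 ± 0.10, adjusted p = 0.00162). The lipoprotein receptor gene Vldlr had 142, 154 and 119 CPM with TM and 63.2, 57.5 and 90.4 CPM in controls, with the highest control below the lowest treated library (0.94 ± 0.17, adjusted p = 0.00165). Lrp1, a large receptor of apolipoprotein E, overlapped (-0.02 ± 0.15), and Mylip fell (-0.47 ± 0.13, adjusted p = 0.0145).

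Export genes of WT neurons moved little by comparison. Of 4, Apoe alone was called: it had 1769.7, 1385 and 1331 CPM in TM-treated WT neurons and 2925, 2416 and 1905 CPM in control WT neurons, the ranges lying close but apart (-0.73 ± 0.17, adjusted p = 0.00615). Of the 8 astrocyte markers in these cultures 7 fell with TM, and their sum was 803 to 857 CPM against 2422 to 2522 CPM in controls, a change whose part in the Apoe result was not tested. Abca1 (0.47 ± 0.18, adjusted p = 0.0567), Abcg1 (0.04 ± 0.12) and Cyp46a1 (-0.22 ± 0.09, adjusted p = 0.0626) were not called. Without control library 3, 3 of the 4 were called, 2 lower and 1 higher, where 56.0% of all genes were called. Without TM-treated library 3, 2 were called, both lower, where 46.5% of all genes were called. With all 6 libraries, each alternative setting (listed with the processing) called 2 or 3 of the 4. In these fits 30.8% to 57.0% of all genes were called. Nr1h3 was called higher from a low level, 4.29, 2.14 and 4.05 CPM with TM and 1.10, 1.23 and 2.02 CPM in controls, and lost the call without any of 3 libraries, TM-treated 1 or 3 or control 1 (adjusted p up to 0.0609).

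**Figure D2:**
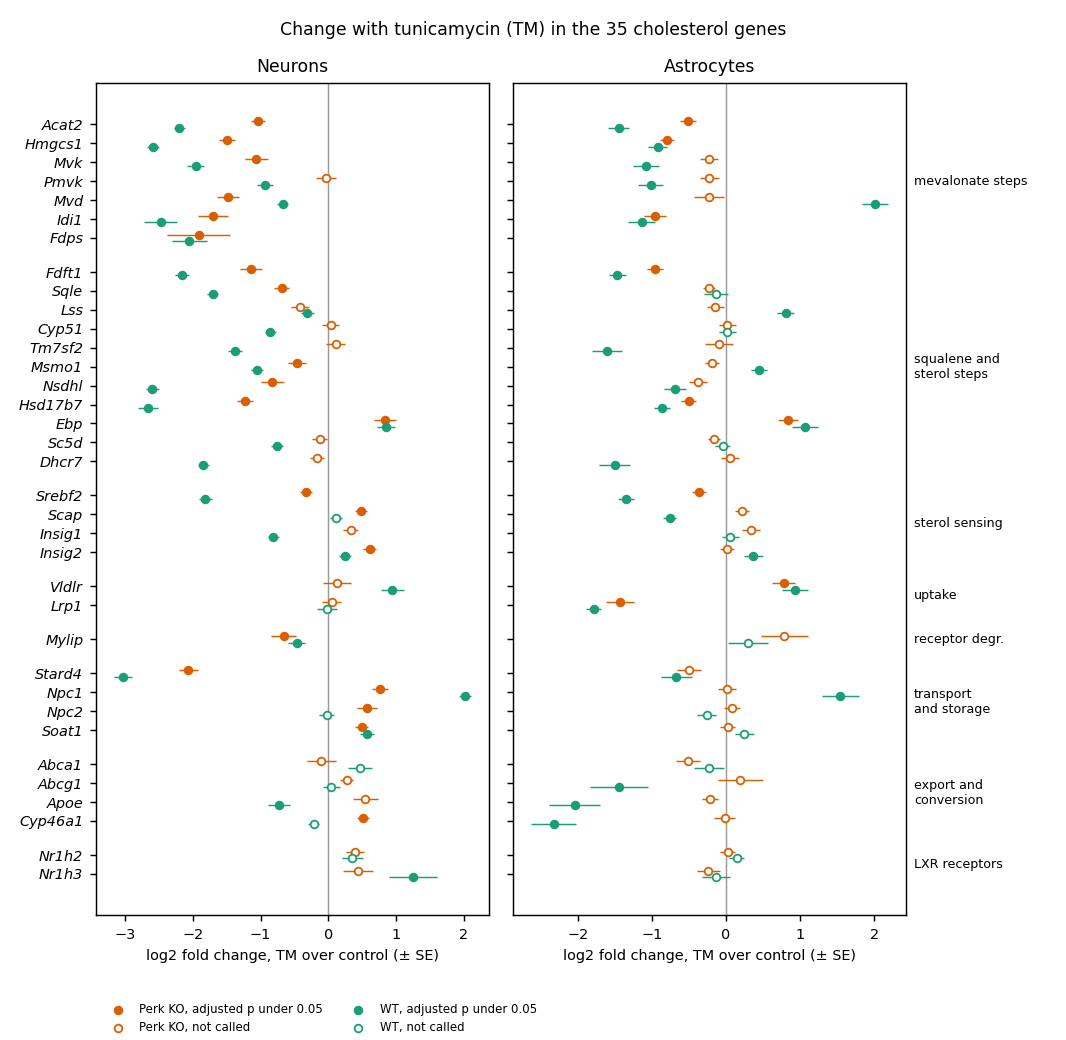
Log2 fold change of each member with TM (TM over control, ± SE, 3 against 3 libraries) in neurons and astrocytes; orange is Perk KO, green is WT, and filled points passed an adjusted p of 0.05. Synthesis genes of WT neurons lie left of 0 except Ebp, and the Perk KO points lie nearer to 0 for most of them.

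Without Perk, the fall of the synthesis route in neurons was smaller for most genes, and most synthesis genes began from a lower control level. In Perk KO neurons TM lowered 14 and raised 7 of the 35 members, where 23.8% of all 16197 genes were called, 13.1% higher and 10.8% lower. Of the 18 synthesis genes 11 fell and 1 rose, with a median log2 fold change of -0.76 against 0.02 over all genes. Of the 8 neuron markers 6 fell here too, with sums of 3229 to 3558 CPM in TM-treated Perk KO neurons and 4623 to 5027 CPM in control Perk KO neurons. Oligodendrocyte lineage markers summed to 222 to 265 CPM with TM and 312 to 366 CPM in controls, with 1 of 7 lower. Fibroblast and mural markers summed to 255 to 265 and 394 to 535 CPM, with 1 of 7 lower and 1 higher, and microglia markers to 20.2 to 34.2 and 35.7 to 53.9 CPM, with 4 of 7 lower. Their part in the member values was not tested. The 3858 calls over all genes numbered 1972 to 2109 without control library 1, 2 or 3 or TM-treated library 3, and 5844 without TM-treated library 2.

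Hmgcs1 had 282, 253 and 297 CPM in TM-treated Perk KO neurons and 876, 687 and 780.4 CPM in control Perk KO neurons, without overlap (-1.49 ± 0.12, adjusted p = 3.82e-04). Dhcr7 had 82.8, 71.7 and 76.6 CPM with TM and 94.7, 80.8 and 84.0 CPM in controls, and these ranges overlapped (-0.17 ± 0.10, adjusted p = 0.283). Tm7sf2, a sterol reductase, had 35.3, 28.4 and 34.0 CPM with TM and 34.9, 26.9 and 28.8 CPM in controls, also with overlap (0.11 ± 0.14, adjusted p = 0.617). Cyp51, Pmvk and Sc5d were likewise not called in Perk KO neurons. Stard4 kept the largest fall among the members (-2.07 ± 0.14, adjusted p = 2.02e-04). Ebp rose here as well, with 50.3, 33.5 and 37.4 CPM in TM-treated Perk KO neurons against 23.3, 22.4 and 21.9 CPM in control Perk KO neurons (0.84 ± 0.16, adjusted p = 0.00868).

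Srebf2 had 279, 252 and 263 CPM in TM-treated Perk KO neurons and 351, 313 and 333 CPM in control Perk KO neurons, a narrow separation (-0.33 ± 0.09, adjusted p = 0.0347) whose call was lost without any 1 of 4 libraries (control 1, 2 or 3 or TM-treated 3; adjusted p up to 0.128). Calls of Msmo1, Mylip and Npc2 were lost without each of the same 4 libraries (adjusted p up to 0.157, 0.132 and 0.0990). Scap rose (0.48 ± 0.09, adjusted p = 0.00693), as did Insig2 (0.61 ± 0.10, adjusted p = 0.00390). Npc1 rose less than in WT neurons, to 59.3, 72.4 and 74.9 CPM with TM against 39.1, 39.5 and 43.1 CPM in controls, still without overlap (0.76 ± 0.12, adjusted p = 0.00371). Of the export genes Cyp46a1 rose (0.51 ± 0.09, adjusted p = 0.00737), and Apoe had 5258, 3469 and 4058 CPM with TM and 3102, 3084 and 2557 CPM in controls, which did not overlap but were not called (0.55 ± 0.18, adjusted p = 0.0605). Summed astrocyte markers in these cultures were 2642 to 3187 CPM with TM and 3199.7 to 3433 CPM in controls.

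The difference between the genotypes in the TM response of neurons was tested as an interaction over 12 libraries. It was called for 23 of the 35 members, with 21 positive and 2 negative values, where 29.8% of all 15939 genes were called, 14.5% higher and 15.4% lower. A positive value means that the TM change was higher, or less of a fall, in Perk KO than in WT neurons. For the 18 synthesis genes the median was 0.87 against -0.08 over all genes tested, and 13 were positive and 1 negative. An interaction value holds the genotype difference of the control cultures as well as that under TM. Fdps aside, the synthesis geometric mean was 82.0 to 97.1 CPM in control Perk KO and 129 to 137 CPM in control WT neurons. Under TM it was 51.4 to 60.1 CPM in Perk KO and 47.8 to 48.6 CPM in WT neurons. The wider gap thus lay between the controls, whose calls leaned on single libraries as described below. The largest positive values were those of Nsdhl (1.74 ± 0.20, adjusted p = 8.36e-05), Dhcr7 (1.64 ± 0.12, adjusted p = 4.50e-06), Tm7sf2 (1.45 ± 0.17), Srebf2 (1.45 ± 0.12) and Hsd17b7 (1.41 ± 0.19). Mvd ran against the rest of the route, falling more in Perk KO neurons than in WT neurons (-0.84 ± 0.18, adjusted p = 0.00429). Npc1 was the other negative value (-1.29 ± 0.14, adjusted p = 6.58e-05). Lss and Ebp were not called (-0.15 ± 0.16 and -0.04 ± 0.21). Apoe (1.24 ± 0.26, adjusted p = 0.00413) and Cyp46a1 (0.70 ± 0.11, adjusted p = 8.68e-04) were positive. Beside these, 7 of the 8 astrocyte markers in the neuron cultures were positive in the same test, and their part in the member values was not tested.

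In unstressed cultures, Perk KO neurons held less synthesis transcript than WT neurons. The comparisons of neurons share libraries with each other, so their values are set side by side and are not independent. Control Perk KO neurons had 18 members lower and 1 higher than control WT neurons, where 21.4% of all 15757 genes were called, 12.2% higher and 9.16% lower. Of the 18 synthesis genes 15 were lower, with a median log2 difference of -0.66 against -0.01 over all genes. Mvd had 54.7, 44.0 and 50.5 CPM in control Perk KO neurons against 101, 101 and 93.9 CPM in control WT neurons, 2.00-fold lower and without overlap (adjusted p = 0.00479). Nsdhl had 67.2, 57.7 and 54.8 CPM in control Perk KO neurons against the 113 to 117 CPM of control WT neurons given above (-0.96 ± 0.10, adjusted p = 0.00479). Acat2 was lower by a like amount (-0.92 ± 0.09, adjusted p = 0.00419). Hmgcs1 (-0.32 ± 0.11, adjusted p = 0.0643) and Idi1 (0.31 ± 0.21, adjusted p = 0.302) were not called. The receptor Vldlr was the member called higher (0.62 ± 0.16, adjusted p = 0.0291), a call lost without any 1 of 5 libraries (all but control WT library 3, adjusted p up to 0.111), and of the export genes Cyp46a1 was lower (-0.39 ± 0.07, adjusted p = 0.0126). Of the marker lists, 4 of 8 astrocyte markers and 5 of 7 fibroblast and mural markers were higher and 5 of 8 neuron markers lower in control Perk KO neurons, and their part in the member values was not tested.

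These control calls leaned on single libraries. Of the 19, 12 were left without control WT library 1, 9 without control Perk KO library 2 and 7 without control Perk KO library 3, where 4.4%, 3.74% and 1.63% of all genes were called. Synthesis genes made up 8 of these 9 and 6 of these 7. The share over all genes was also lower without control WT library 2 (1710 calls) or control Perk KO library 1 (1821 calls), and higher without control WT library 3 (5414 calls against 3370 from all 6 libraries). Acat2, Mvd, Sqle, Cyp51, Nsdhl, Hsd17b7 and Insig1 kept their calls in all 6 such fits. Log2 differences across all genes also followed the GC content of transcripts in this comparison, with a Spearman rho of -0.44 across genes. With a correction for GC content, Hmgcs1 was called lower (-0.65, adjusted p = 0.00275), while Cyp46a1 (-0.23, adjusted p = 0.0634) and Ebp (-0.33, adjusted p = 0.0813) were not called. The replicate numbers paired libraries here, and with the number as a block Hmgcs1 was lower (-0.32, adjusted p = 0.0199) and Abca1 higher (0.54, adjusted p = 0.00422). Calls of the 4 export genes varied with the setting. With the GC correction 2 were higher and 0 lower, where 18.8% of all genes were called. With the block 2 were higher and 1 lower, where 30.5% were called. With DESeq2 1 was higher and 1 lower, where 23.7% were called. No export gene was called without control WT library 1 or control Perk KO library 2 or 3.

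Under TM, most synthesis genes that differed between the genotypes were higher in Perk KO neurons. TM-treated Perk KO neurons had 16 members higher and 3 lower than TM-treated WT neurons, where 40.1% of all 16026 genes were called, 20.7% higher and 19.4% lower. Among synthesis genes 8 were higher and 2 lower, with a median of 0.38 against 0.02 over all genes. Without TM-treated Perk KO library 2 Cyp51, Fdft1, Msmo1, Mvk and Pmvk were called higher as well, and Sqle lost its call without TM-treated WT library 2 or 3 or TM-treated Perk KO library 3 (adjusted p up to 0.100). Dhcr7 averaged 77.0 ± 5.53 CPM in TM-treated Perk KO neurons and 35.2 ± 1.28 CPM in TM-treated WT neurons (SD, n = 3 each), without overlap (1.19 ± 0.11, adjusted p = 1.23e-04). Srebf2 averaged 265 ± 13.5 and 131 ± 12.2 CPM in the same groups (1.08 ± 0.11, adjusted p = 2.04e-04). Mvd and Lss were the synthesis genes that were lower. Mvd had 17.5, 14.5 and 21.4 CPM in TM-treated Perk KO neurons against 64.7, 63.7 and 61.7 CPM in TM-treated WT neurons, the groups lying far apart (-1.77 ± 0.16, adjusted p = 1.07e-04). Npc1 was lower as well (-1.18 ± 0.11, adjusted p = 1.34e-04). Apoe had the largest positive difference, its libraries of 5258, 3469 and 4058 CPM all lying above those of TM-treated WT neurons at 1769.7, 1385 and 1331 CPM (1.58 ± 0.20, adjusted p = 5.83e-04). All 8 astrocyte markers were higher too, with sums of 2642 to 3187 CPM against 803 to 857 CPM. In the same order neuron markers summed to 3229 to 3558 and 3103 to 3426 CPM. Oligodendrocyte lineage markers summed to 222 to 265 and 98.4 to 142 CPM. Fibroblast and mural markers summed to 255 to 265 and 136 to 168 CPM, and microglia markers to 20.2 to 34.2 and 4.37 to 8.14 CPM. The part of these markers in the member values, Apoe among them, was not tested.

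**Figure D3:**
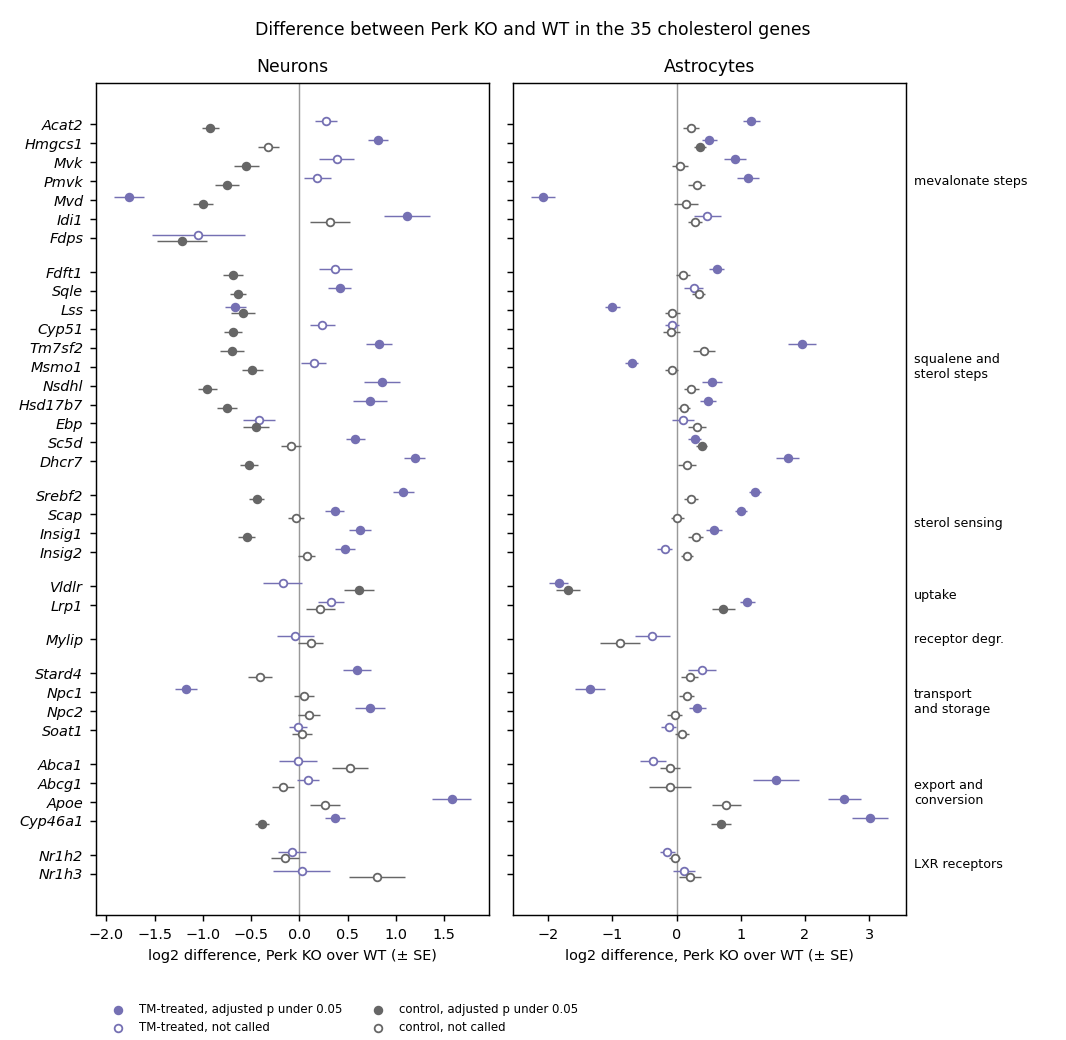
Log2 difference between Perk KO and WT (Perk KO over WT, ± SE, 3 against 3 libraries) for each member in TM-treated (purple) and control (grey) cultures; filled points passed an adjusted p of 0.05. In neurons the control points of the synthesis genes lie mostly left of 0 and the TM-treated points mostly right of 0, with Mvd and Lss called and left of 0 in both.

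WT astrocytes answered TM with a divided synthesis route. Of the 34 members tested (Fdps did not pass the filter on low counts), 17 fell and 7 rose, where 52.7% of all 14907 genes were called, 25.0% higher and 27.7% lower. Of 17 synthesis genes tested 10 fell and 4 rose, with a median log2 fold change of -0.87 against -0.01 over all genes. Insig2 and Stard4 were among the calls and each lost its call in 4 of the 6 fits that left out a library, both of them without control library 2 or TM-treated library 2 (adjusted p up to 0.122 and 0.0868).

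The falls in WT astrocytes included Acat2 (-1.44 ± 0.14, adjusted p = 1.57e-04), Fdft1 (-1.47 ± 0.11, adjusted p = 6.22e-05) and Tm7sf2 (-1.60 ± 0.20, adjusted p = 4.85e-04). Hmgcs1 had 111, 103 and 89.9 CPM in TM-treated WT astrocytes and 206, 186 and 177 CPM in control WT astrocytes, without overlap (-0.92 ± 0.12, adjusted p = 6.07e-04). The rising genes were Mvd, Ebp, Lss and Msmo1. Mvd had 54.8, 39.6 and 36.4 CPM in TM-treated WT astrocytes against 10.4, 10.4 and 11.3 CPM in control WT astrocytes. The lowest treated library was more than 3 times the highest control, and the rise was 4.03-fold (2.01 ± 0.18, adjusted p = 9.86e-05). Ebp had 32.4, 22.2 and 22.5 CPM with TM and 12.6, 11.8 and 11.99 CPM in controls (1.07 ± 0.18, adjusted p = 0.00180). Lss had 49.2, 43.2 and 39.2 CPM with TM and 23.9, 25.5 and 24.99 CPM in controls, again without overlap (0.80 ± 0.12, adjusted p = 0.00101). Both enzymes thus rose beside Mvd, while Sqle, Cyp51 and Sc5d overlapped between the groups and were not called.

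In the same cells the sensors Srebf2 (-1.35 ± 0.11, adjusted p = 7.67e-05) and Scap (-0.76 ± 0.09, adjusted p = 3.69e-04) fell, and Insig1 was not called (0.06 ± 0.12). Lrp1 had 130.4, 129 and 122 CPM in TM-treated WT astrocytes and 433, 435 and 429 CPM in control WT astrocytes, both groups being tight and far apart (-1.79 ± 0.10, adjusted p = 2.01e-05). Vldlr had 159, 207 and 197 CPM with TM and 72.7, 110.5 and 109 CPM in controls, a rise without overlap (0.93 ± 0.17, adjusted p = 0.00310). Npc1 had 275, 164 and 137 CPM with TM and 65.3, 64.7 and 65.2 CPM in controls (1.54 ± 0.25, adjusted p = 0.00142). The first treated library was the highest of the 3 for Mvd, Ebp and Npc1.

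Of the 4 export and conversion genes 3 fell in WT astrocytes, Abca1 being the exception. Apoe had 1061, 619.7 and 516 CPM in TM-treated WT astrocytes against 4187, 2459.9 and 2268 CPM in control WT astrocytes. The first library was the highest in both groups and the groups did not overlap (4.12-fold fall, -2.04 ± 0.34, adjusted p = 0.00177). Cyp46a1 had 6.79, 3.79 and 2.96 CPM with TM and 25.9, 18.8 and 22.3 CPM in controls (-2.33 ± 0.31, adjusted p = 6.08e-04). Abcg1 was called lower from few counts (-1.44 ± 0.39, adjusted p = 0.0159) and lost the call without TM-treated library 2 (adjusted p = 0.0612). Abca1, the most abundant exporter, overlapped between the groups at 861, 819.6 and 535 CPM with TM and 842, 981 and 735 CPM in controls (-0.22 ± 0.20, adjusted p = 0.374). Of the 8 astrocyte markers 6 fell in these cultures, their sum being 629 to 709 CPM with TM and 2207 to 3440.0 CPM in controls. Oligodendrocyte lineage markers summed to 79.6 to 84.7 CPM with TM and 289 to 323 CPM in controls, with 2 of 4 lower, and fibroblast and mural markers to 341 to 418 and 1073 to 1179 CPM, with 2 of 6 lower. Neuron markers summed to 216 to 285 and 276 to 313 CPM, with 5 of 6 lower and 1 higher, and microglia markers to 2.44 to 21.3 and 21.0 to 116 CPM, with 5 of 6 lower. The part of these marker changes in the member values was not tested. Neither Nr1h2 nor Nr1h3 was called.

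In Perk KO astrocytes TM called 9 of 34 members, 7 lower and 2 higher, where 10.1% of all 15164 genes were called, 5.55% higher and 4.6% lower. Of the 17 synthesis genes tested 5 fell and 1 rose, with a median of -0.23 against 0.00 over all genes. Hmgcs1 had 156, 138 and 131 CPM in TM-treated Perk KO astrocytes and 241, 252 and 242 CPM in control Perk KO astrocytes, without overlap (-0.79 ± 0.09, adjusted p = 8.63e-04). Fdft1 and Idi1 fell by 0.95 and 0.96 on the log2 scale. Mvd had 9.20, 9.08 and 12.2 CPM with TM and 10.4, 9.99 and 15.2 CPM in controls, which overlapped (-0.23 ± 0.20, adjusted p = 0.571). Ebp rose here too, with 26.7, 24.4 and 30.3 CPM with TM and 13.6, 14.3 and 17.5 CPM in controls (0.84 ± 0.14, adjusted p = 0.00551). Lrp1 fell (-1.43 ± 0.19, adjusted p = 0.00183) and Vldlr rose (0.78 ± 0.15, adjusted p = 0.0129). No export gene was called: Apoe had 4697, 4099 and 4421 CPM in TM-treated Perk KO astrocytes and 5547, 4533 and 5229.8 CPM in control Perk KO astrocytes, which overlapped (-0.22 ± 0.11, adjusted p = 0.274). Astrocyte markers summed to 1801 to 2475 CPM with TM and 2983 to 4089.8 CPM in controls, without overlap and with 2 of 8 lower. Fibroblast and mural markers summed to 519 to 692 and 1031 to 1528 CPM, with 1 of 6 lower, and oligodendrocyte lineage markers to 366 to 441 and 321 to 402 CPM, with 1 of 5 lower and 1 higher. The part of these markers in the member values was not tested.

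Same-numbered astrocyte libraries deviated together, and with the replicate number as a block 17 members were called in this comparison, 13 lower and 4 higher, where 28.3% of all genes were called with the block. The added falls were those of Abca1 (-0.51, adjusted p = 1.68e-05), Apoe (-0.21, adjusted p = 0.0252), Stard4 (-0.50, adjusted p = 0.00105), Nsdhl (-0.38, adjusted p = 0.0120), Sqle (-0.23, adjusted p = 0.0110) and Msmo1 (-0.19, adjusted p = 0.0294). The added rises were those of Scap (0.22, adjusted p = 0.0148) and Insig1 (0.33, adjusted p = 0.00129). Without the block, 5 members were called without TM-treated library 2, where 5.32% of all genes were called; the 1539 calls over all genes numbered 807 in that fit and 890 without control library 2. The call of Srebf2 was lost without any 1 of the 6 libraries (adjusted p up to 0.216), those of Acat2 and Hsd17b7 without control or TM-treated library 2, and that of Vldlr without TM-treated library 2 (adjusted p up to 0.0934, 0.0776 and 0.0602).

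The genotype by TM interaction in astrocytes was called for 15 of 34 members, 11 positive and 4 negative, where 34.4% of all 15114 genes were called, 19.8% higher and 14.6% lower. Synthesis genes were divided here, 6 positive and 3 negative of 17, with a median of 0.17 against 0.01 over all genes. Dhcr7 (1.54 ± 0.22, adjusted p = 2.55e-04) and Tm7sf2 (1.49 ± 0.27, adjusted p = 0.00146) were positive here as in neurons. Mvd (-2.26 ± 0.28, adjusted p = 1.10e-04), Lss (-0.96 ± 0.15, adjusted p = 5.17e-04) and Msmo1 (-0.65 ± 0.13, adjusted p = 0.00301) were negative, their TM rise in WT astrocytes not being called in Perk KO astrocytes. Npc1 was negative as well (-1.54 ± 0.29, adjusted p = 0.00173). Of the export genes Cyp46a1 (2.30 ± 0.34, adjusted p = 3.30e-04) and Apoe (1.81 ± 0.37, adjusted p = 0.00303) were positive. Abcg1 was called too (1.62 ± 0.51, adjusted p = 0.0283), but lost the call in 7 of the 12 fits that left out a library. These left out control WT 1, TM-treated WT 2 or 3, control Perk KO 2 or 3, or TM-treated Perk KO 1 or 3 (adjusted p up to 0.0688). Beside these values, astrocyte markers summed to 629 to 709 CPM with TM and 2207 to 3440 CPM in controls of WT astrocytes. In Perk KO astrocytes they summed to 1801 to 2475 and 2983 to 4090 CPM. Neuron markers summed to 216 to 285 and 276 to 313 CPM in WT astrocytes, and 334 to 360 and 343 to 371 CPM in Perk KO. The part of these markers in the member values was not tested.

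Between the genotypes under TM, 18 members were higher and 5 lower in Perk KO astrocytes (67.6% of 34), near the 63.3% of all 14927 genes called, 32.1% higher and 31.2% lower. Cyp46a1 had 35.6, 30.7 and 41.2 CPM in TM-treated Perk KO astrocytes against 6.79, 3.79 and 2.96 CPM in TM-treated WT astrocytes, an 8.08-fold difference and the largest of any member (3.01 ± 0.28, adjusted p = 4.45e-05). Apoe was 6.12-fold higher in Perk KO (2.61 ± 0.26, adjusted p = 5.52e-05). Of the 8 astrocyte markers 7 were higher as well, with sums of 1801 to 2475 CPM in TM-treated Perk KO astrocytes and 629 to 709 CPM in TM-treated WT astrocytes. In the same order neuron markers summed to 334 to 360 and 216 to 285 CPM. Oligodendrocyte lineage markers summed to 366 to 441 and 79.6 to 84.7 CPM. Fibroblast and mural markers summed to 519 to 692 and 341 to 418 CPM, and microglia markers to 6.65 to 18.3 and 2.44 to 21.3 CPM. The part of these markers in the member values was not tested. Of 17 synthesis genes 10 were higher, led by Tm7sf2 (1.95 ± 0.22, adjusted p = 1.09e-04) and Dhcr7 (1.73 ± 0.18, adjusted p = 7.77e-05), and Mvd, Lss and Msmo1 were lower. The synthesis median was 0.49 against 0.01 over all genes. Sc5d and Npc2 lost their calls without TM-treated Perk KO library 1, 2 or 3 or TM-treated WT library 2 or 3. Their adjusted p went up to 0.121 and 0.182. Nsdhl lost its call without TM-treated WT library 2 or 3 (adjusted p up to 0.0564). Without TM-treated WT library 1 Idi1, Sqle and Stard4 were called higher as well, and without TM-treated WT library 3 Abca1 was called lower. Srebf2 averaged 165 ± 10.2 CPM in TM-treated Perk KO astrocytes and 71.7 ± 2.72 CPM in TM-treated WT astrocytes (1.23 ± 0.10, adjusted p = 2.02e-05). Scap was higher by a like factor (1.00 ± 0.09, adjusted p = 4.00e-05).

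Between control Perk KO and control WT astrocytes the share of members called, 14.7%, was near that over all genes. Of 34 members 4 were higher and 1 lower, where 14.9% of all 15196 genes were called, 4.71% higher and 10.2% lower. The lower gene was Vldlr, with 24.3, 31.3 and 34.8 CPM in control Perk KO astrocytes against 72.7, 110.5 and 109 CPM in control WT astrocytes. The groups were well apart (-1.69 ± 0.19, adjusted p = 0.00695), and this was the call kept in each of the 6 fits that left out a library; 1 or 2 members were called in 5 of these fits. The 2260 calls over all genes numbered 50 without control WT library 2, 406 without control Perk KO library 2, 472 without control WT library 3, 658 without control Perk KO library 1 and 1211 without control Perk KO library 3, but 4138 without control WT library 1. Under TM the same gene was lower in Perk KO by a like amount (-1.84 ± 0.15, adjusted p = 2.34e-05). The higher genes were Lrp1 (0.73 ± 0.18), Cyp46a1 (0.69 ± 0.15), Sc5d (0.39 ± 0.09) and Hmgcs1 (0.37 ± 0.10), and each lost its call without control WT library 2 or 3 or control Perk KO library 1 or 2, and the last 3 also without control Perk KO library 3 (adjusted p up to 0.123, 0.105, 0.0958 and 0.151). With the replicate block 12 of 34 members (35.3%) were called, 10 higher and 2 lower, where 37.7% of all genes were called, so this share too lay near that over all genes. Among them were Apoe (0.83, adjusted p = 0.00158), Sqle (0.35, adjusted p = 0.00523), Insig1 (0.30, adjusted p = 0.0134) and Srebf2 (0.23, adjusted p = 0.0314).

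**Figure D4:**
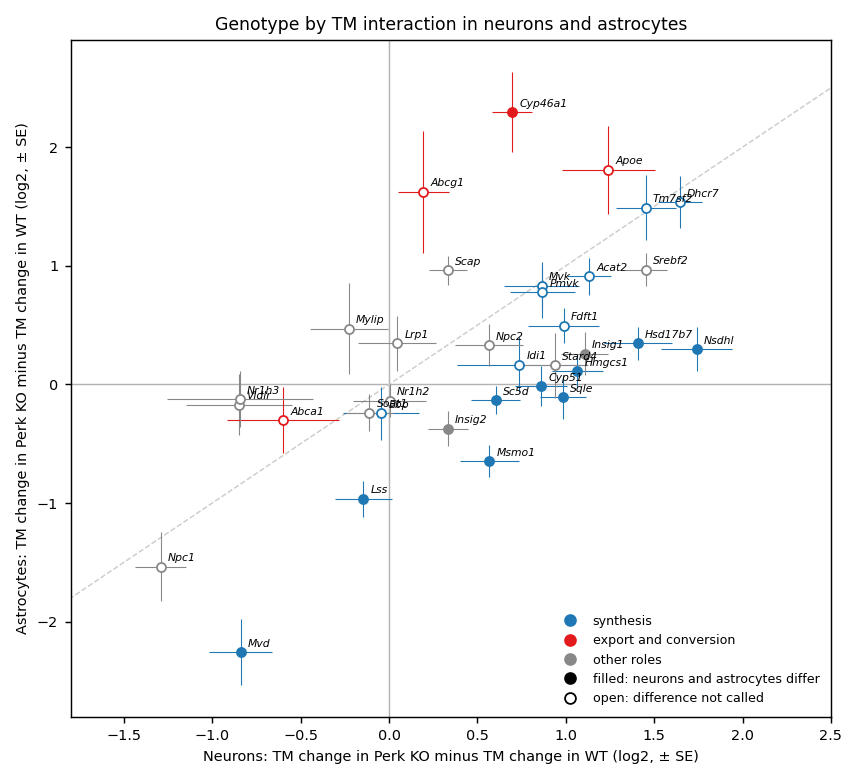
Genotype by TM interaction (TM change in Perk KO minus TM change in WT, log2, ± SE) in neurons (x axis) and astrocytes (y axis) for the 34 members tested in both; blue points are synthesis genes, red points export and conversion genes and grey points other roles, and filled points differed between the cell types at an adjusted p of 0.05. Tm7sf2 and Dhcr7 lie near the dashed line of equal values, Nsdhl and Hmgcs1 lie to its right and Cyp46a1 above it.

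Neuron and astrocyte cultures differed in how TM changed these genes. Both held astrocyte transcripts. Astrocyte markers summed to 803 to 857 CPM in TM-treated and 2422 to 2522 CPM in control WT neuron cultures. In WT astrocyte cultures they summed to 629 to 709 and 2207 to 3440 CPM. The part of cell composition in these and the following interaction values was not tested. In WT cultures the cell type by TM interaction was called for 23 of 35 members, 5 positive and 18 negative, where 24.9% of all 15712 genes were called, 12.4% higher and 12.5% lower. Negative values mean a lower TM change in neurons. Of 18 synthesis genes 14 were negative, with a median of -1.17 against -0.02 over all genes. Mvd stood at -2.86 ± 0.20 (adjusted p = 3.71e-06), Nsdhl at -2.09 ± 0.17 (adjusted p = 1.22e-05) and Hsd17b7 at -1.97 ± 0.20. Pmvk, Tm7sf2, Ebp and Dhcr7 were not called. Stard4 was strongly negative (-2.54 ± 0.26, adjusted p = 5.05e-05), whereas Lrp1 (1.59 ± 0.19, adjusted p = 1.65e-04) and Cyp46a1 (1.94 ± 0.31, adjusted p = 8.86e-04) were positive, having fallen in WT astrocytes while not being called in WT neurons. Abcg1 was called positive too, but lost its call without TM-treated WT astrocyte library 2 (adjusted p = 0.0564). Apoe was not called (1.14 ± 0.40, adjusted p = 0.0562). It was called without TM-treated WT astrocyte library 1 (adjusted p = 0.00709) or control WT astrocyte library 3 (adjusted p = 0.0397). Without the count filter all 4 export genes were positive, where 12.9% of all genes were called. The same held with the GC correction and the block, where 37.2% were called.

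In Perk KO cultures the same interaction was called for 12 of 35 members, 5 positive and 7 negative, where 11.7% of all 16059 genes were called, 6.9% higher and 4.78% lower. The synthesis median was -0.36 against 0.04 over all genes, with 5 of 18 negative. Stard4 (-1.56 ± 0.23, adjusted p = 0.00147) and Lrp1 (1.49 ± 0.27, adjusted p = 0.00490) had the largest values in either direction in Perk KO cultures. The count was 7 without control Perk KO neuron library 1, without TM-treated Perk KO neuron library 3 or without TM-treated Perk KO astrocyte library 2, where 6.3%, 7.61% and 6.27% of all genes were called, and 3 synthesis genes were called in each of these fits.

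Whether the dependence on genotype itself differed between the cell types was tested over all 24 libraries. This 3-way interaction was called for 12 of 35 members, where 5.51% of all 15924 genes were called, 2.08% higher and 3.43% lower, and 9 of the 18 synthesis genes were positive and none negative (median 0.91 against -0.01 over all genes). The called synthesis genes were Hmgcs1 (1.08 ± 0.21), Mvd (1.55 ± 0.34), Sqle (1.22 ± 0.23), Lss (0.95 ± 0.22), Cyp51 (1.01 ± 0.23), Msmo1 (1.34 ± 0.22, adjusted p = 6.66e-04), Nsdhl (1.57 ± 0.28, adjusted p = 0.00159), Hsd17b7 (1.19 ± 0.24) and Sc5d (0.87 ± 0.18). Insig1 and Insig2 were positive as well. Cyp46a1 was the negative one (-1.47 ± 0.36, adjusted p = 0.0181). A positive value came about in more than 1 way: for Hmgcs1 the interaction was 1.06 in neurons and 0.11 in astrocytes, whereas for Mvd it was -0.84 in neurons and -2.26 in astrocytes.

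Set side by side, synthesis and export genes moved differently in the 2 cell types. The geometric mean of 17 synthesis genes (Fdps left out) was 51.4 to 60.1 CPM in TM-treated Perk KO neurons, 47.8 to 48.6 in TM-treated WT neurons, 82.0 to 97.1 in control Perk KO neurons and 129 to 137 in control WT neurons. Both TM groups of neurons lay below both control groups. The geometric mean of the 4 export genes in the same order was 261 to 279.5, 197 to 209, 213 to 226 and 208 to 214 CPM, a much narrower span in which TM-treated Perk KO neurons were the highest. In astrocytes the synthesis means were 30.6 to 33.1 CPM in TM-treated Perk KO, 22.9 to 28.5 in TM-treated WT, 36.6 to 42.1 in control Perk KO and 33.6 to 34.4 in control WT cultures. Their export means were 133 to 151, 29.8 to 63.0, 134 to 185 and 107 to 148 CPM in that order, with TM-treated WT astrocytes lowest and apart from the rest. In WT neurons TM thus separated the synthesis means by more than the export means, and in WT astrocytes the export means by more than the synthesis means. In WT astrocytes 10 synthesis genes fell and 4 rose, and these opposite changes partly offset each other in the mean. The export mean gives Abcg1, with few counts, the same weight as Abca1, which was not called. Astrocyte markers summed to 629 to 709 CPM in TM-treated and 2207 to 3440 CPM in control WT astrocytes. In WT neurons the neuron markers summed to 3103 to 3426 and 5554 to 5913 CPM. The part of these markers in the means was not tested. The 2 receptors, Vldlr and Lrp1, did not both follow the synthesis genes. Vldlr rose with TM in WT neurons and in both astrocyte genotypes, where most called synthesis genes fell. Lrp1 fell in both astrocyte genotypes, the direction of most called synthesis genes there, but overlapped between TM-treated and control WT neurons.

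**Figure D5:**
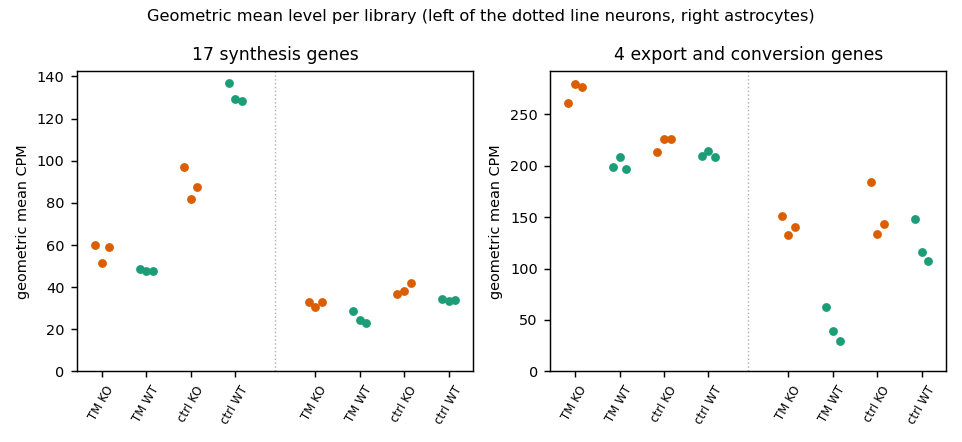
Geometric mean CPM per library of 17 synthesis genes and of the 4 export and conversion genes; points are libraries, orange is Perk KO and green is WT, and CPM are normalised separately for neurons and astrocytes. The synthesis mean is highest in control WT neurons at 129 to 137 CPM, and the export mean is lowest in TM-treated WT astrocytes.

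Of 39 further genes of sterol metabolism, listed apart from the members, 38 were tested in WT neurons, and 13 rose and 12 fell with TM, a share of 65.8% where 51.8% of all genes were called. Erlin1, which helps remove ER membrane proteins, averaged 73.3 ± 5.36 CPM with TM and 24.0 ± 1.31 CPM in controls (1.57 ± 0.10, adjusted p = 5.27e-06). Soat2, a second cholesterol esterifying enzyme, was near the limit of detection in control WT neurons (0.141 ± 0.0496 CPM) and averaged 5.12 ± 1.44 CPM with TM. Srebf1 (-1.23 ± 0.11, adjusted p = 3.52e-05) and the receptor Lrp8 (-0.92 ± 0.09, adjusted p = 4.70e-05) fell. In Perk KO neurons 13 rose and 3 fell (42.1%, against 23.8% of all genes), and Cyp7b1, an oxysterol hydroxylase, rose (1.47 ± 0.17, adjusted p = 0.00108). In WT astrocytes 13 rose and 14 fell (71.1%, against 52.7% of all genes). The oxysterol-binding protein gene Osbp (1.55 ± 0.10) and its relative Osbpl2 (1.12 ± 0.10) rose, and Scarb2 (-1.70 ± 0.16) and Cyp39a1 (-2.79 ± 0.27) fell, all with adjusted p of at most 1.39e-04. In Perk KO astrocytes 6 rose and 2 fell of 36 tested (22.2%, against 10.1% of all genes), Cyp7b1 again among the rises (1.93 ± 0.17, adjusted p = 1.61e-04).

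The genotype by TM interaction of these further genes was positive for 10 and negative for 7 of 38 in neurons (44.7%, against 29.8% of all genes), and positive for 12 and negative for 6 of 38 in astrocytes (47.4%, against 34.4%). Cyp7b1 was positive in both (2.40 ± 0.22 in neurons, adjusted p = 1.81e-05, and 1.83 ± 0.24 in astrocytes, adjusted p = 1.34e-04), and Osbp (-0.84 ± 0.10 and -0.97 ± 0.14) and Osbpl2 (-0.78 ± 0.10 and -1.13 ± 0.15) were negative in both. Between the genotypes in control cultures 4 were higher and 3 lower in neurons as in astrocytes, shares of 19.4% and 18.4% that lay near the 21.4% and 14.9% of all genes. Under TM 14 were higher and 8 lower in Perk KO neurons (57.9%, against 40.1% of all genes) and 17 higher and 12 lower in Perk KO astrocytes (78.4%, against 63.3%). Cyp39a1, an oxysterol hydroxylase, averaged 15.7 ± 0.874 CPM in TM-treated Perk KO neurons against 1.35 ± 0.209 CPM in TM-treated WT neurons, and 32.0 ± 4.12 CPM in TM-treated Perk KO astrocytes against 3.15 ± 0.870 CPM in TM-treated WT astrocytes. It was higher in Perk KO in both (3.59 ± 0.20 and 3.37 ± 0.22, adjusted p = 2.00e-05 and 8.58e-06).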

How the data were processed

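The submitters' processing notes name fastp, HISAT2, featureCounts and DESeq2 and the build GRCm38.p6 (versions not given in the sources used here). Raw read counts were deposited by the authors for each gene in 8 tables. The log2 fold changes and p-values that the authors deposited beside them were not used for results. Count values of a library that appears in several tables were compared, and 0 of 595092 differed. EdgeR 4.0.16 in R 4.3.3 was run on the counts (TMM, quasi-likelihood F test, a mean count of 10 or more, Benjamini-Hochberg adjustment over all genes of a fit). Comparisons of 2 groups used their own 6 libraries, 2-way interactions 12 and the 3-way interaction 24. Standard errors were taken as the size of the log2 fold change over the root of F. For levels per kb the deposited gene length was used. Members, lists and tests were chosen with earlier results of these data known. Of the further genes, those named came from the 2 called genes with the smallest p in each direction.

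Sample titles speak of biological replicates, but no label ties a library to its own culture or animal. The p-values therefore reflect spread among libraries alone, which may be technical. Replicates differed by more than sampling noise (chi-square per gene of 7.06 to 70.6). The kit does not mark strand, so overlapping genes share reads (Fdft1 with Ctsb, Cyp51 with Akap9, Tm7sf2 with Vps51, Npc1 with 3110002H16Rik). PCR reads without molecular identifiers are not independent molecules. Whether replicate numbers pair libraries was judged from how same-numbered libraries deviate together, as a correlation over genes. It was 0.310 to 0.668 among astrocyte libraries, 0.228 to 0.426 between control Perk KO and control WT neurons and 0.224 to 0.607 between TM-treated Perk KO and TM-treated WT neurons, so numbers were taken to pair these. Between TM-treated and control neurons it went down to -0.521 in WT and -0.182 in Perk KO, and these were not taken as pairs. The fitting code was tested on simulated data. Alternatives were no count filter, DESeq2 size factors, a DESeq2 1.42.0 fit, a block for the replicate number, a correction for GC content over 20 bins with and without that block, and leaving out each library.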

Additional observations from a re-analysis of the deposited data

Results flagged for a closer look

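Effects that differed between genotypes or cell types were called for 23 members in the genotype by TM interaction of neurons. This was 65.7%, against 29.8% of all genes. In that of astrocytes they were called for 15 members (44.1%, against 34.4% of all genes). In the cell type by TM interaction of WT cultures they were called for 23 (65.7%, against 24.9%). In that of Perk KO cultures they were called for 12 (34.3%, against 11.7%). In the 3-way interaction they were called for 12 (34.3%, against 5.51%). What drew attention to each was a test of the difference itself, edgeR's interaction term over 12 or 24 libraries, and the values of the genes are in the report.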

How the results depend on the processing

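No called member result, of 265 over the 14 comparisons, changed its direction under any alternative. Called results that lost their call numbered 1 with DESeq2, 5 with DESeq2 size factors, 8 with the GC correction, 2 with the replicate block, 1 with the GC correction and the block, and 15 without the count filter. Leaving out 1 library kept 210 of the 265 calls in all fits. The cause was not tested. With the replicate block 17 members were called for TM in Perk KO astrocytes (9 without it) and 12 for Perk KO against WT in control astrocytes (5 without it), and with the GC correction and the block 18 and 12. In the other comparisons counts of called members with the block were within 1.5 times those without it. This held also for TM in neurons, where numbers were not taken to pair libraries. Of the 4 export genes alone, 2 were called for TM in WT neurons with the block, against 1 without it. With the block 47.0% of all genes were called in that comparison. Export calls with and without the block were 2 and 0 for TM in Perk KO astrocytes (28.3% of all genes with the block). For Perk KO against WT they were 3 and 1 in control neurons (30.5%) and 2 and 1 in control astrocytes (37.7%). They were also 2 and 1 for the cell type by TM interaction in Perk KO cultures (17.3%) and for the 3-way interaction (11.6%). Leaving out each library gave 5 to 9 members for TM in Perk KO astrocytes, 7 to 23 for Perk KO against WT in control neurons, 1 to 7 in control astrocytes and 7 to 15 for the cell type by TM interaction in Perk KO cultures. At 16.0 to 25.9 M counts a library, Fdps had too few counts to be tested in comparisons within astrocytes. Calls over all genes moved by more than 1.5 times with the replicate block for TM in Perk KO astrocytes (4288 against 1539), for Perk KO against WT in control astrocytes (5730 against 2260) and for the 3-way interaction (1842 against 878), which had 1531 with DESeq2. With the GC correction and the block these 3 had 4365, 5717 and 2500, and the cell type by TM interaction in Perk KO cultures had 3116 against 1875. Leaving out a library gave 807 to 890 calls in the fits that moved by as much for TM in Perk KO astrocytes, 1972 to 5844 for TM in Perk KO neurons, 257 to 5414 for Perk KO against WT in control neurons, 50 to 4138 in control astrocytes and 1010 to 3383 for the cell type by TM interaction in Perk KO cultures.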
